A study of Homo sapiens with 6 samples.

Results

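The metallothionein genes MT1E, MT1F, MT1G, MT1M, MT1X and MT2A were examined together with MTF1, which encodes the metal sensor of the system, and SLC30A1, which encodes a zinc exporter. The 8 genes were taken from a list drawn up by name, with earlier results of these data known. All 8 were found among the 50868 Ensembl gene identifiers of the deposited tables. The data are FPKM values (fragment counts scaled to the depth of the library and to gene length) from RNA-seq of cells labelled A549, a human lung adenocarcinoma line. A scramble control siRNA had been transfected in 3 libraries and an siRNA against SF3B4, a subunit of the SF3b splicing complex, in 3 others, so every group had been through transfection. The titles name biological replicates and do not say whether these were separate cultures, so the tests speak only to variation among these 6 libraries, which may be technical. Among the SF3B4 siRNA libraries, replicates 2 and 3 carry SF3B5 and SF3B6 in their genotype field, and the titles were followed. Neither dose nor sampling time was stated in the labels.

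Metallothioneins are small cysteine-rich proteins whose thiol groups hold zinc, copper and cadmium. When free zinc rises, the zinc-finger factor MTF1 binds metal response elements in the promoters of metallothionein genes and of SLC30A1 and raises their transcription. The stored zinc and its export by SLC30A1 at the plasma membrane then lower free zinc again, and metallothionein genes, MT2A in particular, also respond to glucocorticoids.

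After SF3B4 siRNA the metallothionein genes went in opposite directions. MT1E and MT1F rose, MT1X fell, and MT2A, by far the most abundant, did not pass the test. MTF1 rose, while SLC30A1 did not pass the test. MT1G and MT1M were practically not detected. In all, 3 of the 6 tested genes were higher, against 16.0% of all 9685 tested genes, and 1 was lower, against 18.1%. Either call was made for 34.1% of the tested genes, so a call by itself is common in this comparison. The median log2 fold change of the 6 tested genes was 0.40, beside -0.0035 over all tested genes. It includes MTF1 and SLC30A1, and the 4 tested metallothionein genes ran from -0.65 (MT1X) to 0.72 (MT1E). The median therefore does not describe the metallothionein genes as a set.

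The 6 metallothionein genes of the list lie together on chromosome 16 (GRCh38, GENCODE 29), from MT2A at 56608199 to 56609497 to MT1X at 56682424 to 56684196. MT1E is at 56625475 to 56627112, MT1M at 56632233 to 56633986, MT1F at 56657694 to 56660698 and MT1G, on the minus strand, at 56666731 to 56668065. Each encodes 61 amino acids, of which 20 are cysteines (32.8% of codons). The coding sequences of the 4 detected genes are shown because their likeness bears on how fragments can be told apart. They are read from the GENCODE 29 principal transcripts, 5′ to 3′ in the direction of transcription, with cysteine codons in capitals.
MT2A: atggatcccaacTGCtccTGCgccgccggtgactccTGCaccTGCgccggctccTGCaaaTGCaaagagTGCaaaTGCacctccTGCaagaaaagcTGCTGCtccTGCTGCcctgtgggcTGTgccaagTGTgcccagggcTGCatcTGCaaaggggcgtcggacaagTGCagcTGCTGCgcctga
MT1X: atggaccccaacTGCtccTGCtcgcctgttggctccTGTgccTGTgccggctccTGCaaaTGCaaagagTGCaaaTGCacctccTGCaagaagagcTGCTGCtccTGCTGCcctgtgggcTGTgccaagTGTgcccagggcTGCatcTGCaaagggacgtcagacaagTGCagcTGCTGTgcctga
MT1E: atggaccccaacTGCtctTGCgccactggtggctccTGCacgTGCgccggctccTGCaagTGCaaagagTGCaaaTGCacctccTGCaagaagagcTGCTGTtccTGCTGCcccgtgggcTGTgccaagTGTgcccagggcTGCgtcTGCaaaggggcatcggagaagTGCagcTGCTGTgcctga
MT1F: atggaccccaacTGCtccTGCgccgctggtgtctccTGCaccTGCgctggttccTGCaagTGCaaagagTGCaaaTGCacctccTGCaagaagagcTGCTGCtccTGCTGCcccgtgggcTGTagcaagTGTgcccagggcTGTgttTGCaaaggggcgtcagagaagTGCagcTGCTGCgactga

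In these 186 bases, MT1E was identical to MT1X at 90.9% of positions, to MT1F at 91.9% and to MT2A at 92.5%. Over all pairs of the 6 genes the identity ran from 88.7% (MT1F and MT1X) to 95.2% (MT1G and MT2A). Of all stretches of 50 bases in the principal transcripts, 5.34% in MT1E, 3.59% in MT1F, 4.89% in MT2A and 45.1% in MT1X also occur in transcripts of other genes. At 100 bases the share was 0 in MT1E, MT1F and MT2A and 19.1% in MT1X. The stretches of 100 bases in MT1X are shared with AC026461.1, a noncoding gene on the same strand that overlaps 18.1% of the annotated MT1X exons and was listed at 0 in all 6 libraries. Neither read length nor the treatment of fragments that match several genes was stated, so MT1X is the most uncertain of the detected members.

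The deposited values could be turned back into whole fragments. Multiplied by the summed length of every distinct annotated exon, overlapping exons each counted in full, all 37 values above 0 came out whole, to within 0.05 fragments. The implied depth was 17508357 to 18529319 fragments per library. The counts give the depth behind each level: 9188 to 12373 fragments for MT2A, 446 to 806 for MT1X, 302 to 588 for MT1E and 212 to 398 for MT1F. MTF1 held 187 to 362 fragments and SLC30A1 221 to 326. The largest counting error among these 6 genes was a coefficient of variation of 7.31%, in MTF1 of control replicate 3, and it covers counting error only.

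The knockdown itself was visible: SF3B4 stood at 88.6, 92.0 and 93.8 FPKM with control siRNA, against 22.0, 17.7 and 22.3 FPKM with its own siRNA, which is 22.6% of the control mean. The epithelial markers EPCAM (18.0 to 28.8 FPKM), KRT8 (221 to 248) and KRT19 (573 to 709) were present in every library. Of 8 genes typical of A549 that were fixed as markers, 3 passed the filter (FPKM of at least 1 in at least 3 libraries). AKR1C1 lay between 0.0161 and 0.0749 FPKM, AKR1C2 between 0.0292 and 0.107 and ALDH3A1 between 0.0208 and 0.076, so these 3 markers of that line were nearly absent. NQO1, another marker of the list, was abundant at 147 to 180.2 FPKM. The deposited tables are named after H1650, a different lung adenocarcinoma line, and the identity of the cells was not tested.

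MT2A, the main zinc-binding metallothionein of most tissues, had FPKM values of 195.9, 226.7 and 200.2 in control replicates 1 to 3, against 170.8, 195.7 and 176.1 in SF3B4 siRNA replicates 1 to 3. The groups nearly touched, since the highest SF3B4 siRNA library lay just under the lowest control library. The means were 207.6 ± 16.7 and 180.9 ± 13.1 FPKM (SD, n = 3 each). The log2 fold change was -0.20 ± 0.08 (SE, limma adjusted p = 0.092), which did not pass the threshold of 0.05. Its 95% interval, not adjusted for the number of genes tested, ran from 0.77 to 0.99 of the control level.

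MT1X gave FPKM values of 12.9, 15.0 and 13.9 with control siRNA, against 8.42, 10.0 and 8.15 with SF3B4 siRNA. Every SF3B4 siRNA library was below every control library. The mean fell from 13.9 ± 1.07 to 8.87 ± 1.02 (SD, n = 3 each), to 63.8% of the control. On the log2 scale the difference was -0.65 ± 0.10 (SE), with limma adjusted p = 0.0032.

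MT1E went the other way. Its FPKM values were 10.8, 13.2 and 12.0 with control siRNA, against 18.2, 20.4 and 20.7 with SF3B4 siRNA, again with no overlap between the groups. Its mean rose from 12.0 ± 1.20 to 19.7 ± 1.39 (SD, n = 3 each). On the log2 scale the difference was 0.72 ± 0.10 (SE), with limma adjusted p = 0.0015. The 95% interval of the fold change was 1.41 to 1.92.

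MT1F was lower in level, at 3.88, 5.32 and 4.32 FPKM with control siRNA, against 5.95, 7.34 and 6.81 FPKM after SF3B4 siRNA. The highest control library and the lowest SF3B4 siRNA library lay close together. The mean rose from 4.51 ± 0.738 to 6.70 ± 0.701 (SD, n = 3 each). The log2 difference was 0.57 ± 0.14 (SE), with limma adjusted p = 0.016. This call was the least firm of the 4: it was lost without the filter on low values (adjusted p = 0.053), without control replicate 3 (0.051) and without SF3B4 siRNA replicate 2 (0.054), over a range of 0.0089 to 0.054 in the alternatives of MT1F.

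**Figure D1:**
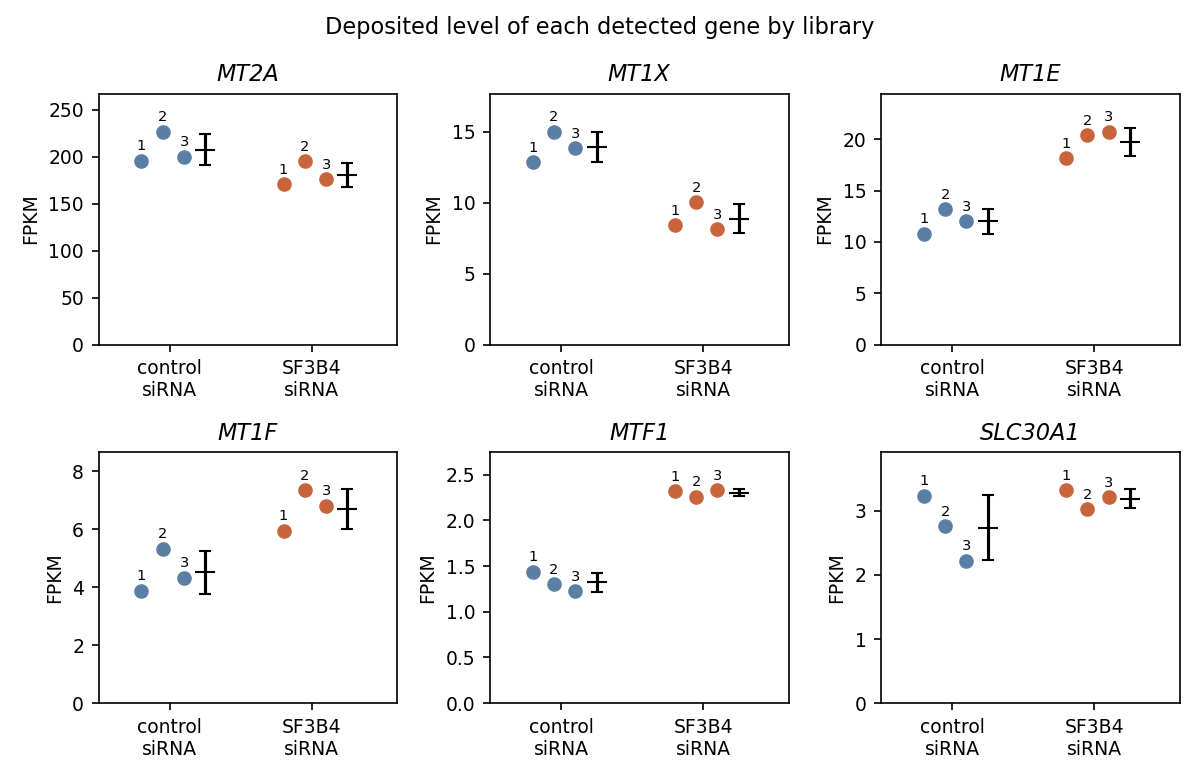
FPKM (vertical axes, each from 0) of the 6 detected genes in each library, with replicate numbers beside the points and the mean ± SD of 3 libraries as a bar. MT1E, MT1F and MTF1 are higher and MT1X lower in all 3 SF3B4 siRNA libraries, MT2A nearly meets between the groups at 195.9 and 195.7 FPKM, and SLC30A1 overlaps.

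MT1G was listed at 0.0400 FPKM in control replicate 2, a single fragment, and at 0 in the other libraries. MT1M was listed at 0 in all 6. A count of 0 allows up to 3 fragments per library, which for MT1M is an FPKM of 0.153 to 0.161 at these depths, for counting error only. Neither gene was tested. Of the other human metallothionein genes and pseudogenes, 11 of 15 were found in the tables by symbol, and 8 of the 11 were listed at 0 throughout, MT1A, MT1B, MT1H and MT4 among them. MT3, known from brain, reached at most 0.126 FPKM, MT1L 0.331 FPKM and MT1JP 0.0388 FPKM, from 29, 3 and 1 fragments over all libraries. Expression of the family in these cells was thus carried by MT2A, MT1X, MT1E and MT1F.

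Because MT1X and the MT1E and MT1F pair moved apart, the total of the MT1 genes stayed in the same range. MT1E, MT1F, MT1G and MT1X together gave 67.1, 81.6 and 73.3 FPM (fragments scaled to library depth as in FPKM, without the length) in control replicates 1 to 3 and 71.1, 83.6 and 76.8 after SF3B4 siRNA. These sums overlap between the groups, while their makeup differs. The ratio of MT1E to MT1X fragments was 0.425, 0.445 and 0.438 in the control libraries and 1.09, 1.03 and 1.29 in the SF3B4 siRNA libraries. A ratio within a library does not depend on the library's scaling. Both the sum and the ratio are descriptions, and the ratio was chosen after the values of the genes had been seen.

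**Figure D2:**
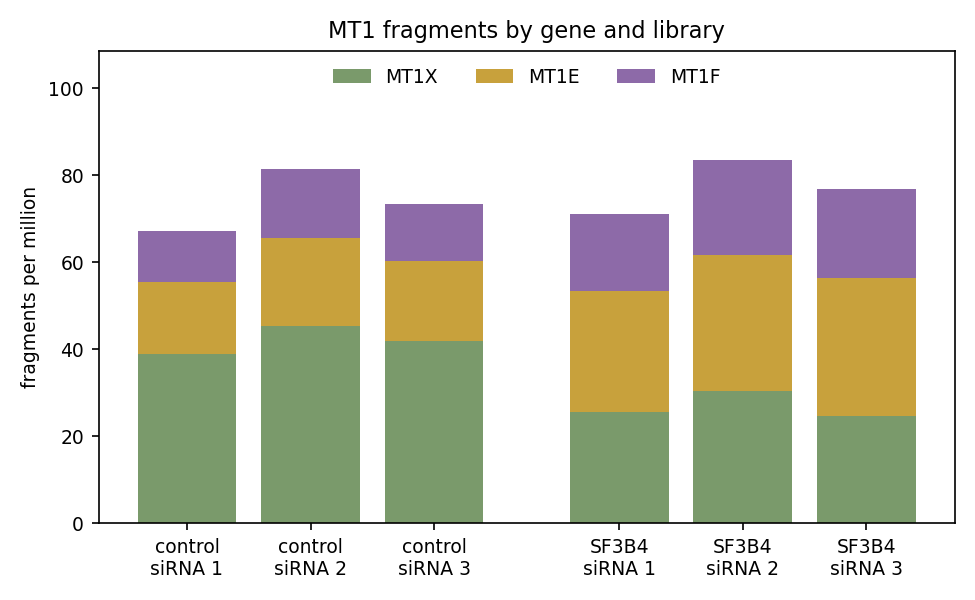
FPM, fragments scaled to library depth (vertical axis, from 0), of MT1X, MT1E and MT1F, stacked for each library. The heights of the stacks overlap between the groups, while the SF3B4 siRNA libraries have a smaller MT1X part and larger MT1E and MT1F parts.

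With MT2A included, metallothionein genes gave 669, 778 and 688 FPM in the control libraries and 596, 685 and 618 in the SF3B4 siRNA libraries, so these totals overlap. The sums of FPKM were 223, 260 and 230 in the control libraries and 203, 233 and 212 after SF3B4 siRNA. MT2A held 89.6 ± 0.321% of the metallothionein fragments in the control libraries and 87.8 ± 0.248% after SF3B4 siRNA (SD, n = 3 each). The share of MT1E went from 2.58 ± 0.0996% to 4.79 ± 0.308% and that of MT1X from 5.91 ± 0.156% to 4.23 ± 0.224%. Replicate 2 had the highest sum in both groups, and its share of the differences between the genes was not tested.

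The order of the levels depended on the length used. The deposited FPKM divide by the length of all distinct annotated exons, which is 6.72 times the principal transcript in MT1X, 4.34 times in MT1F, 3.91 times in MT2A, 2.18 times in MT1E and 1.05 times in MTF1. On the FPKM scale MT1X (13.9) and MT1E (12.0) lay close together in the control libraries, and MT1E (19.7) was above MT1X (8.87) after SF3B4 siRNA. In FPM per kilobase of principal transcript, MT1X was at 93.5 ± 7.19 and MT1E at 26.1 ± 2.60 in the control libraries, and at 59.6 ± 6.86 and 43.0 ± 3.02 after SF3B4 siRNA (SD, n = 3 each). On that scale MT1X therefore remained above MT1E in both groups. That order rests on the annotated 5' UTR, 117 bases in MT1X and 377 in MT1E, while the 3' UTRs are 147 and 141 bases. Whether these 5' ends hold in these cells was not tested. In fragments, without any length, MT1E exceeded MT1X in all 3 SF3B4 siRNA libraries (ratios of 1.03 to 1.29). MT2A came first on either scale, at 812 ± 65.2 and 707 ± 51.3 on the scale of the principal transcript. MT1F followed MT1E at 19.6 ± 3.21 and 29.1 ± 3.04. In the control libraries these neighbours nearly met, MT1F reaching 23.1 and MT1E starting at 23.5, and on the FPKM scale MT1X and MT1E overlapped there. SLC30A1 (2.74 ± 0.506 and 3.19 ± 0.148) and MTF1 (1.39 ± 0.112 and 2.42 ± 0.0411) were lowest of the detected genes. The ratio of the group means of a gene is the same on either scale, since 1 length per gene was used in all libraries. Fitted log2 fold changes include the added 0.1 FPKM, so they depend somewhat on the length used. The mix of transcripts of each gene in the 2 groups was not tested.

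**Figure D3:**
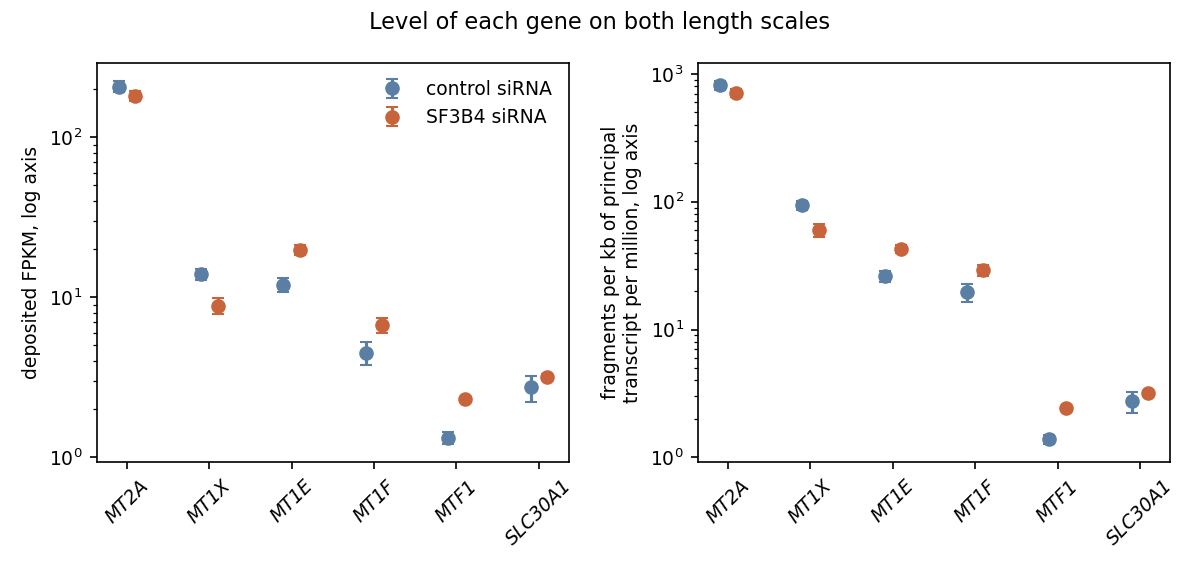
Mean level ± SD over 3 libraries per group on log axes, as deposited FPKM (left) and as FPM per kilobase of principal transcript (right). MT1E lies above MT1X after SF3B4 siRNA on the left (19.7 against 8.87) and below it on the right (43.0 against 59.6).

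MTF1, the transcription factor of the system (chromosome 1, minus strand, 37809567 to 37859620), was at 1.44, 1.303 and 1.23 FPKM with control siRNA. After SF3B4 siRNA it was at 2.32, 2.26 and 2.33 FPKM, every library well above the controls. On the log2 scale it rose by 0.76 ± 0.11 (SE), at limma adjusted p = 0.0020, with a 95% interval of the fold change of 1.42 to 2.02. In the fragment counts this was 220, 194 and 187 against 341, 343 and 362. Of 4325 protein-coding candidates whose FPKM averaged 5 or more, the closest in profile to MTF1 over the 6 libraries were PITPNM3, GOLGA2, RPL26L1, ARHGEF19 and MYLIP. Their profiles, centred on each gene's mean, differed from that of MTF1 by a root mean square of 0.0355 to 0.0504 on the log2 scale. They were picked for the smallest differences, so any other gene is farther by selection. MT1E was at 0.148 from MTF1, MT1F at 0.217, MT2A at 0.495 and MT1X at 0.720. Where these lie among all candidates was not tested.

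SLC30A1 (chromosome 1, minus strand, 211571568 to 211578742), also known as ZnT1, exports zinc from the cell. Its FPKM values were 3.23, 2.76 and 2.22 with control siRNA and 3.32, 3.03 and 3.21 with SF3B4 siRNA. Control replicate 1 lay within the range of the SF3B4 siRNA group, so the groups overlap. The difference on the log2 scale was 0.23 ± 0.14 (SE, limma adjusted p = 0.26), and its 95% interval spanned 0.93 to 1.47 times the control level, so a modest change in either direction was not resolved. The value depended on single control libraries: it was 0.09 without control replicate 3 and 0.35 without control replicate 1. An exact two-sided permutation test of mean FPKM gave p = 0.3 for SLC30A1. The same exact test gave p = 0.1 for MT1E, MT1F, MT1X, MT2A and MTF1, the smallest that 3 against 3 libraries allow. This value means only that the groups do not overlap, and the share of all tested genes without overlap was not counted. Some genes of the lists below that were not called, SLC39A7 and NQO1 among them, did not overlap either, while others did.

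**Figure D4:**
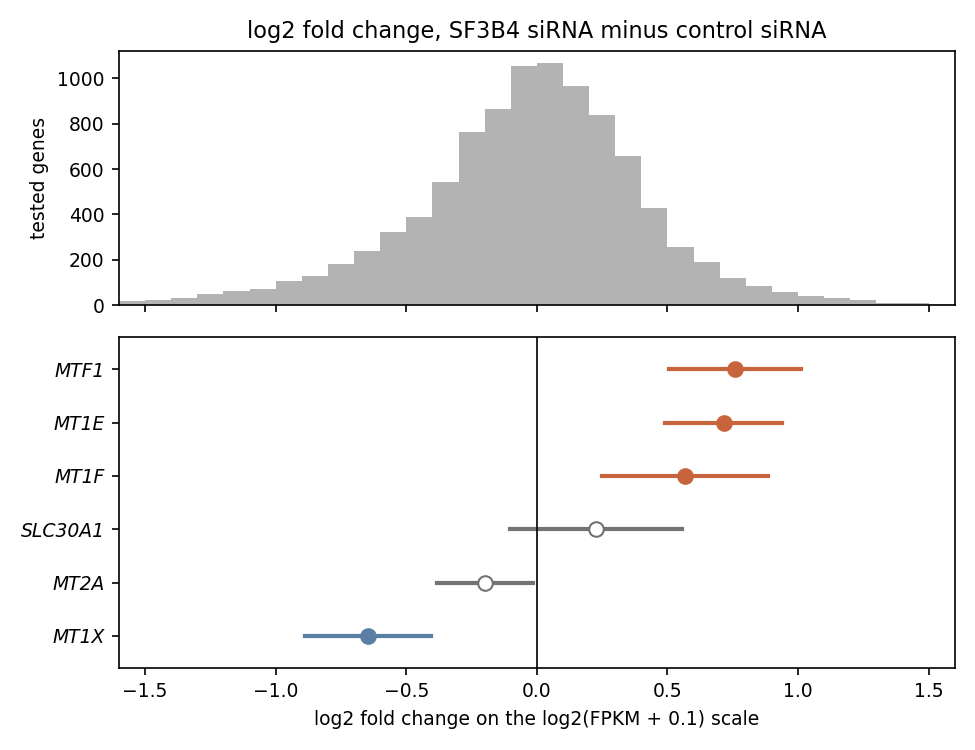
Top, the number of tested genes by log2 fold change (bins of 0.1). Bottom, the log2 fold change of the 6 tested members with its 95% interval, filled where the adjusted p is under 0.05. MTF1 (0.76), MT1E (0.72) and MT1F (0.57) lie to the right of 0 and MT1X (-0.65) to the left, while MT2A and SLC30A1 are open.

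Promoter windows from RefSeq (GRCh38.p14, 250 bases before to 50 after the start of the gene) were available for 4 of the 8 genes: MT2A, MT1X, SLC30A1 and MTF1. RefSeq and GENCODE starts differ. The MT2A window (56608334 to 56608633) lies inside the gene as GENCODE draws it, the MT1X window (56682220 to 56682519) spans the GENCODE start, and that of SLC30A1 (211579112 to 211579411) lies wholly upstream of it. They were searched on both strands for the core of the metal response element, TGCACNC or TGCGCNC. The MT2A window held 8 cores, that of MT1X 4, that of SLC30A1 2 and that of MTF1 none. Of 35116 promoter windows of this length, 29.6% held at least 1 core, 8.60% at least 2, 0.601% at least 4 and 0.0199% at least 8. The windows of MT2A, MT1X and SLC30A1 thus hold more cores than most promoters. The promoters compared were not matched for base composition. Up to 2 cores nearest upstream of the RefSeq start are shown for each, with the core in capitals and 8 bases on either side, on the strand of the gene (a core on the opposite strand reads GNGTGCA or GNGCGCA here).
MT2A, chr16:56608568-56608590: tgccgcgcTGCACTCcaccacgc
MT2A, chr16:56608522-56608544: ggggctttTGCACTCgtcccggc
MT1X, chr16:56682409-56682431: ggggcctcTGCGCCCggccctct
MT1X, chr16:56682384-56682406: gcaggggcGGGTGCAaggacgag
SLC30A1, chr1:211579196-211579218: ggggttccGAGTGCAaagcaaag

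Counted from the RefSeq start site, the cores shown begin at -8 and -54 in MT2A, at -53 and -78 in MT1X and at -49 in SLC30A1. A match of these letters is a description of the window and does not show binding. The 7-base sequences GCCTTCA and CCTTCAA, which came from an earlier look at these same data, were also searched in annotated 3' UTRs. Because of that origin, their presence in a gene is a description and bears on no direction of change. They occurred in 21.1% of 8385 searched tested genes. Among the 8 genes, MTF1 held GCCTTCA, and MT1X held CCTTCAA in an annotated transcript other than the principal one. MT1E, MT1F, MT1G, MT1M, MT2A and SLC30A1 held neither.

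None of the 3 tested further members of the SLC30 family of zinc transporters passed the test. In the control and SF3B4 siRNA libraries, SLC30A5 was at 1.55 ± 0.172 and 1.44 ± 0.143 FPKM. SLC30A7 was at 1.26 ± 0.206 and 1.10 ± 0.302 FPKM, and SLC30A9 at 1.12 ± 0.158 and 1.17 ± 0.214 FPKM. Of 9 tested members of the SLC39 family, which bring zinc into the cytosol, 1 fell and 0 rose, beside 18.1% lower and 16.0% higher over all tested genes. The gene that fell was SLC39A3, a plasma membrane importer, at 7.79, 8.93 and 9.40 FPKM with control siRNA, against 5.38, 4.79 and 5.30 FPKM with SF3B4 siRNA (log2 fold change -0.74, limma adjusted p = 0.0015). SLC39A7, which releases zinc from the endoplasmic reticulum, was the most abundant of them, at 56.0 ± 5.55 and 48.1 ± 1.57 FPKM, and did not pass (limma adjusted p = 0.085). The medians of the SLC30 and SLC39 lists were -0.09 and -0.05 on the log2 scale, beside -0.0035 over all tested genes.

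Of 9 tested copper handling genes, 5 were higher and 1 lower, with a median of 0.28. Over all tested genes 16.0% were higher and 18.1% lower, and the difference from that share was not tested. COMMD1, a regulator of copper export, rose from 8.17 ± 0.296 to 11.8 ± 0.748 FPKM. SOD1, the copper and zinc superoxide dismutase, rose from 138 ± 8.47 to 200 ± 31.7 FPKM, and COX17, which carries copper to cytochrome oxidase assembly, from 7.97 ± 0.857 to 10.4 ± 0.808 FPKM. SCO1, which acts in that assembly too, fell from 2.26 ± 0.464 to 1.14 ± 0.161 FPKM. By limma, adjusted p ran from 0.0026 (COMMD1) to 0.025 (COX17) over these 4.

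Among 10 tested iron genes 3 rose and 2 fell, with a median of 0.02. Over all tested genes the shares were 16.0% higher and 18.1% lower, and nothing particular to the list is read from these counts. STEAP3, a reductase of endosomal iron, fell from 5.13 ± 0.499 to 1.72 ± 0.433 FPKM, a log2 fold change of -1.54. The ferritin heavy chain gene FTH1 fell from 994 ± 20.8 to 759 ± 31.1 FPKM. The light chain gene FTL went the other way, from 907 ± 66.7 to 1075 ± 76.6 FPKM (limma adjusted p = 0.038). SLC11A2, an iron importer, rose from 2.66 ± 0.327 to 3.78 ± 0.155 FPKM. PCBP2, an iron chaperone, rose from 23.4 ± 0.501 to 28.98 ± 2.56 FPKM. Ferritin genes have many processed pseudogenes, so FTH1 and FTL are uncertain.

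Of 10 tested heavy metal and oxidative stress genes, 3 rose and 1 fell, a median of 0.05. A call in either direction was made for 34.1% of all tested genes, close to the 4 of 10 here. Heme oxygenase HMOX1 had the largest rise among them, by 0.79 on the log2 scale. TXNRD1, a thioredoxin reductase, rose from 7.96 ± 1.65 to 11.1 ± 0.771 FPKM, and the chaperone gene HSPH1 fell from 1.31 ± 0.215 to 0.766 ± 0.140 FPKM. HSPA1B rose from 79.8 ± 7.10 to 95.1 ± 3.32 FPKM, which is uncertain because HSPA1A, a near-identical copy, ranged from 2.22 to 65.0 FPKM over the libraries. The cystine transporter and glutathione synthesis genes SLC7A11 and GCLC were below the filter.

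Glucocorticoid receptor targets, listed because MT2A is among the genes that respond to the hormone, were called higher in 2 and lower in 2 of 7 tested genes, with a median of -0.15. Both directions are common over all tested genes (16.0% higher and 18.1% lower). CEBPD rose from 20.7 ± 0.383 to 47.0 ± 2.81 FPKM and TSC22D3 from 3.21 ± 0.850 to 6.71 ± 0.0469 FPKM. ERRFI1 fell from 9.08 ± 0.702 to 5.71 ± 0.977 FPKM and DUSP1 from 22.5 ± 4.21 to 14.5 ± 0.999 FPKM. The receptor gene NR3C1 was below the filter in these libraries.

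**Figure D5:**
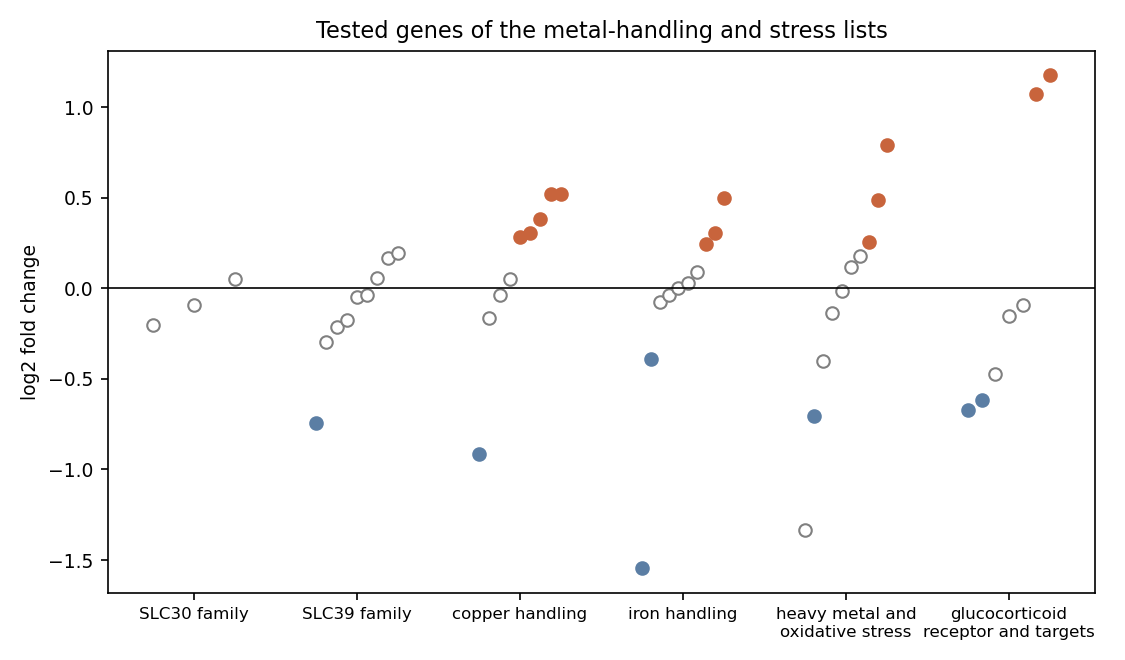
Log2 fold change of each tested gene (points) in 6 lists of metal handling and stress genes, filled where the adjusted p is under 0.05. Copper genes have 5 filled points above 0 and 1 below, and the SLC39 family has a single filled point, SLC39A3, at -0.74.

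Markers of other cell types were low. The 4 leukocyte markers summed to 2.45 to 2.87 FPKM in the control libraries and 4.71 to 6.59 after SF3B4 siRNA, nearly all of it CD14, while PTPRC and LYZ were at 0 in all libraries. The 4 fibroblast markers summed to 1.33 to 1.48 and 2.27 to 2.42 FPKM, nearly all of it COL1A1, with LUM at 0.0229 FPKM or less. The 3 endothelial markers summed to 0.151 FPKM or less. The part of these genes in the results above was not tested. In bulk RNA, a change in the number of cells of a kind and a change in RNA per cell cannot be told apart.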

How the data were processed

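RNA of 6 libraries labelled A549, 3 per siRNA, was measured by RNA-seq. The authors deposited FPKM values, per the file headers. The submitters' processing notes name HISAT2 2.0.4, StringTie 1.3.0 and GRCh38, with no roles. Settings for annotation, strand and multiply matching fragments were not stated. Symbols were found for 49659 of 50868 identifiers, and 50111 identifiers were found in GENCODE 29. FPKM are not counts. In genes with a single exon and transcript, the product of FPKM and length moved in steps, and 99.2% to 99.5% of values up to 20 fragments lay within 0.02 of a whole number. In genes with several transcripts, 85.5% to 86.8% did with the summed length of distinct exons, and 4.25% to 4.98% with merged exons. The steps gave the depth and fragment counts. A gene's adjusted p is from limma 3.58.1 in R 4.3.3 (intensity trend, robust) on log2(FPKM + 0.1), two-sided, Benjamini-Hochberg over 9685 genes (filter: 3 or more libraries at 1 FPKM or above), threshold 0.05. This scale understates changes of low genes. In simulated data the fit called 50 of 65 genes changed by a fold of 1.5, 63 of 65 at 2 and 60 of 61 at 4. It also called 10 of 9273 unchanged genes. Far fewer genes were changed there than were called in these data, and all genes were given the same dispersion (spread between libraries beyond counting error). That dispersion was set by hand and not estimated from these data, so the recovered shares may not hold for more variable genes. Named genes were all members, SF3B4 and up to 4 passing genes with the largest change in each of 7 lists (up to 2 of the most abundant where none passed), plus the 5 nearest profiles, of which 1 is not reported here. Other genes named were chosen after their values were seen. Members and lists were chosen with earlier results of these data known. Alternatives were other pseudocounts, filters, scalings and models, leaving out each library, and, chosen after seeing the data, limma-voom on recovered fragments. Metallothionein pseudogenes MT1P1, MT1P3, MT1XP1 and MT2P1 were not analysed here.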

Additional observations from a re-analysis of the deposited data

How the results depend on the processing

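Over the alternatives of each gene (15, or 14 for MTF1 and SLC30A1, which the filter of mean FPKM of at least 5 removes), MT1E, MT1X and MTF1 kept their direction and their call, at adjusted p of 0.0011 to 0.0081, 0.0022 to 0.014 and 0.00079 to 0.011. SLC30A1 was not called in any of its alternatives (0.076 to 0.62). MT1F kept its log2 fold change of 0.57 without the filter on low values, where its call was lost (adjusted p = 0.053), and leaving out single libraries gave 0.47 to 0.69 and lost the call without control replicate 3 (0.051) or SF3B4 siRNA replicate 2 (0.054). The filter of mean FPKM of at least 5 left 1027 genes higher and 940 lower, since fewer genes were tested. Rescaling to TPM gave 1641 higher and 1629 lower, and quantile normalization 1738 higher and 1636 lower, against 1546 and 1752. With the replicate number as a block, MT2A passed at the same log2 fold change of -0.20 (adjusted p = 0.046, range 0.046 to 0.24 over its alternatives), so that 2 members were lower. The numbers share no stated source, and deviations from the group means of same-numbered libraries correlated over genes at -0.08, 0.024 and -0.118, so the block was not used as the main model. The block changed no other call among the members and gave 1290 genes higher and 1537 lower. Limma-voom on the recovered fragments (9662 genes) made the same calls for the members. MT1G and MT1M were too low to be tested with the filter.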

Other observations

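Of 4324 protein-coding genes averaging 5 FPKM or more, those closest in profile to MT2A over the 6 libraries included FSCN1, PFKP, LRWD1 and PTPRU, with root mean square differences of 0.0234 to 0.0467 on the log2 scale. These genes were picked for the smallest differences among all candidates, so any other gene is farther by selection. MT1X was at 0.229 from MT2A, MT1F at 0.392 and MT1E at 0.462. Where these 3 lie among all candidates was not tested. PFKP, a phosphofructokinase gene, was at means of 190 and 164 FPKM in the control and SF3B4 siRNA libraries. For SLC30A1 the closest were ECI2, ARHGDIB, AMOTL1, ADD1 and GTF3A, at 0.0450 to 0.0594.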
